A study of Mus musculus with 6 samples.

Results

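Genes of the lysosome and of autophagy were examined in 4T1, a tumour cell line from mouse mammary gland, as wild type (WT) cells and as cells with a knockout (KO) of Myo1e. That gene encodes myosin 1e, an actin motor that binds membranes. The set was a list of 36 gene symbols fixed by name: 17 lysosomal hydrolases, 2 lumenal cofactors, 6 lysosomal membrane proteins, 5 autophagy genes and 6 regulators, the last being the transcription factors TFEB and TFE3 and proteins that act on them. Of these, 35 had a row in the deposited table of 11452 genes, and all 35 met the minimum level for testing. Rragd, which encodes a Rag GTPase, was not analysed here.

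Messenger RNA from 3 cell pools of each genotype was sequenced with a stranded library kit, with no treatment named in the labels. All 6 libraries came from the same cell line in culture, and the sources used here do not give how the knockout was made, whether a pool is clonal or whether pools were cultured separately, so p-values measure the spread between these libraries. The columns of the table are numbered 1, 2 and 4 in each genotype, and libraries are named here by genotype and number, as KO 4 or WT 4. The labels number the pools 1 to 3, so the columns numbered 4 were tied to a genotype and not to a pool, and the sources used here do not say what the number 4 stands for.

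The lysosome is the acidic compartment in which hydrolases break down proteins, lipids, glycans and nucleic acids that arrive by endocytosis or by autophagy. Autophagy encloses cytoplasm in a double membrane, the autophagosome, which then fuses with the lysosome. TFEB and TFE3 are transcription factors that bind E-box sequences near many of these genes. They are held in the cytoplasm when the kinase complex mTORC1 is active on the lysosomal surface, where RagC and RagD GTPases and the folliculin complex present them to the kinase.

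The sum of recovered reads was 17772003 to 19988206 per library. The libraries numbered 4 stood apart in the whole transcriptome: 83.8% of the variance lay on the first principal component, on which KO 4 and WT 4 scored 48.4 and 49.2 while the scores of the 4 others ran from -27.7 to -20.4. The targeted gene Myo1e was at 6.87, 6.81 and 6.81 log2 CPM (CPM being the reads scaled to library size, with a prior added before the log) in the KO libraries 1, 2 and 4, and at 7.09, 7.02 and 6.91 in the WT libraries 1, 2 and 4, so its transcripts were present in every KO library. Counts over a whole gene do not show which part of it was lost. Epithelial markers named after their values were seen, Epcam, Cdh1, Krt8 and Krt18, were all at 7.66 log2 CPM or more in every library. Of 12 macrophage markers, genes of a lysosome-rich cell type, 2 had a row in the table, Cd68 and Cd14, and their summed level was 12.9 to 16.8 CPM in the libraries numbered 1 and 2 and 10.9 and 11.2 CPM in KO 4 and WT 4. Fewer cells of a type and less RNA per cell cannot be told apart in such samples.

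Promoter sequences are shown because TFEB and TFE3, which are among the 36 genes, are known to bind the E-box core CACGTG with a T before it. Whether either factor was bound was not measured. RefSeq promoter windows (GRCm38.p6, 250 bases before to 50 bases after the start) were matched by symbol for 33 of the 36 genes. Asah1, Ctsb and Npc1 had no match. The core CACGTG, which reads alike on both strands, was in at least 1 window of 10 of these 33 genes (30.3%). All 10 were among the 32 tested (31.25%). Counted by gene in the same way, it was in 12.2% of 8944 tested genes and 8.09% of all 27025 genes with a window. Counted by window, it was in 7.15% of all 32851 windows of the same length. The core with a T before it on either strand, TCACGTG or CACGTGA, which contains the core by construction, was in 9 of 33 (27.3%). Counted by gene, the shares were 7.29% of tested genes and 4.29% of all genes with a window. Counted by window, the share was 3.77%. The motif was chosen because these factors are known to bind E-boxes near many of these genes. The higher shares in the list are therefore no independent evidence, and they were not tested. A match is a description of these letters and not a binding site.

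For each of the 9 genes with the flanked core, stretches before the start that hold it are given 5′ to 3′ on the strand of the gene, with the core and any flanking T or A of the motif in capitals. Cores that lie after the start are left out.
Lamp1 (chr8:13159074-13159160, plus strand): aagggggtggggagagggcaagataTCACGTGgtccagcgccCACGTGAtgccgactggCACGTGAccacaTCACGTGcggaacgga
Mcoln1 (chr8:3500422-3500505, plus strand): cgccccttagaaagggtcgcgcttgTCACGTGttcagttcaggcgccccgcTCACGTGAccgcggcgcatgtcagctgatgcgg
Gla (chrX:134601168-134601255, minus strand): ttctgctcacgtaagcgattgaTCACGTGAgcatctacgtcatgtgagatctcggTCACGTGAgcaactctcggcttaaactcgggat
Ctsd (chr7:142388041-142388077, minus strand): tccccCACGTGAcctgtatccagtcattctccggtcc
Ctsd (chr7:142387894-142387951, minus strand): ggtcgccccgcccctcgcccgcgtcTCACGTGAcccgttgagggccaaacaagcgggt
Gaa (chr11:119267797-119267853, plus strand): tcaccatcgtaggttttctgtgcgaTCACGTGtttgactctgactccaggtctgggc
Glb1 (chr9:114401004-114401060, plus strand): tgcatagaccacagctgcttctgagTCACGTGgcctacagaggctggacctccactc
Fnip1 (chr11:54438079-54438135, plus strand): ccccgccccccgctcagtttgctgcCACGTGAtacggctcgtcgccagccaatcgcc
Rragc (chr4:123917296-123917352, plus strand): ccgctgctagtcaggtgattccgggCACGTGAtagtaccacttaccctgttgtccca
Ctsa (chr2:164833735-164833772, plus strand): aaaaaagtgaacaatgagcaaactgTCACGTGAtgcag
The Lamp1 stretch held 4 flanked cores within 87 bases, the stretches of Mcoln1 and Gla held 2 each, and Ctsd held 1 in each of 2 stretches. A further window of Ctsl held the core without a flanking T: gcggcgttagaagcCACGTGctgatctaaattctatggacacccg (chr13:64370726-64370770, minus strand). The windows of Sqstm1, Scarb2 and Gusb, whose levels differed most between library numbers, held no CACGTG.

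Most lysosome and autophagy genes were higher in the libraries numbered 4 than in those numbered 1 and 2, in both genotypes. Of the 35 genes, 23 rose and 3 fell at an adjusted p of 0.05 in limma's test with a term for genotype and a term for number 4, and 9 did not pass. That fit treats KO 4 and WT 4 as independent libraries, although they share a number. Its p-values therefore do not measure the spread between numbers, of which number 4 is only 1. Over all 11269 genes tested, 31.8% were called higher and 33.8% lower in the same fit, so a call in itself was common (65.6% in either direction) and the 23 of 35 (65.7%) stand beside a background share of 31.8%. The median difference was 0.33 on the log2 scale (a ratio of 1.25), against a median of 0.0031 over all genes. Within KO alone the median was 0.28, with 13 genes called higher and 4 lower, where 24.2% and 27.7% of all genes were. Within WT alone it was 0.38, with 19 higher and 3 lower, where 23.4% and 26.2% of all genes were. In 25 genes both libraries numbered 4 lay above the 4 others, with no overlap, where 35.8% of all genes did, and in 3 genes they lay below, where 37% of all genes did. Without WT 4 the count called higher was 13, with the calls of Ctsb, Ctsd, Hexa, Lamp2, Mcoln1, Neu1, Npc1, Rragc, Tfeb and Ulk1 lost, and the call of Lipa was lost without KO 4. These counts describe a list chosen with earlier results of these data known.

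**Figure D1:**
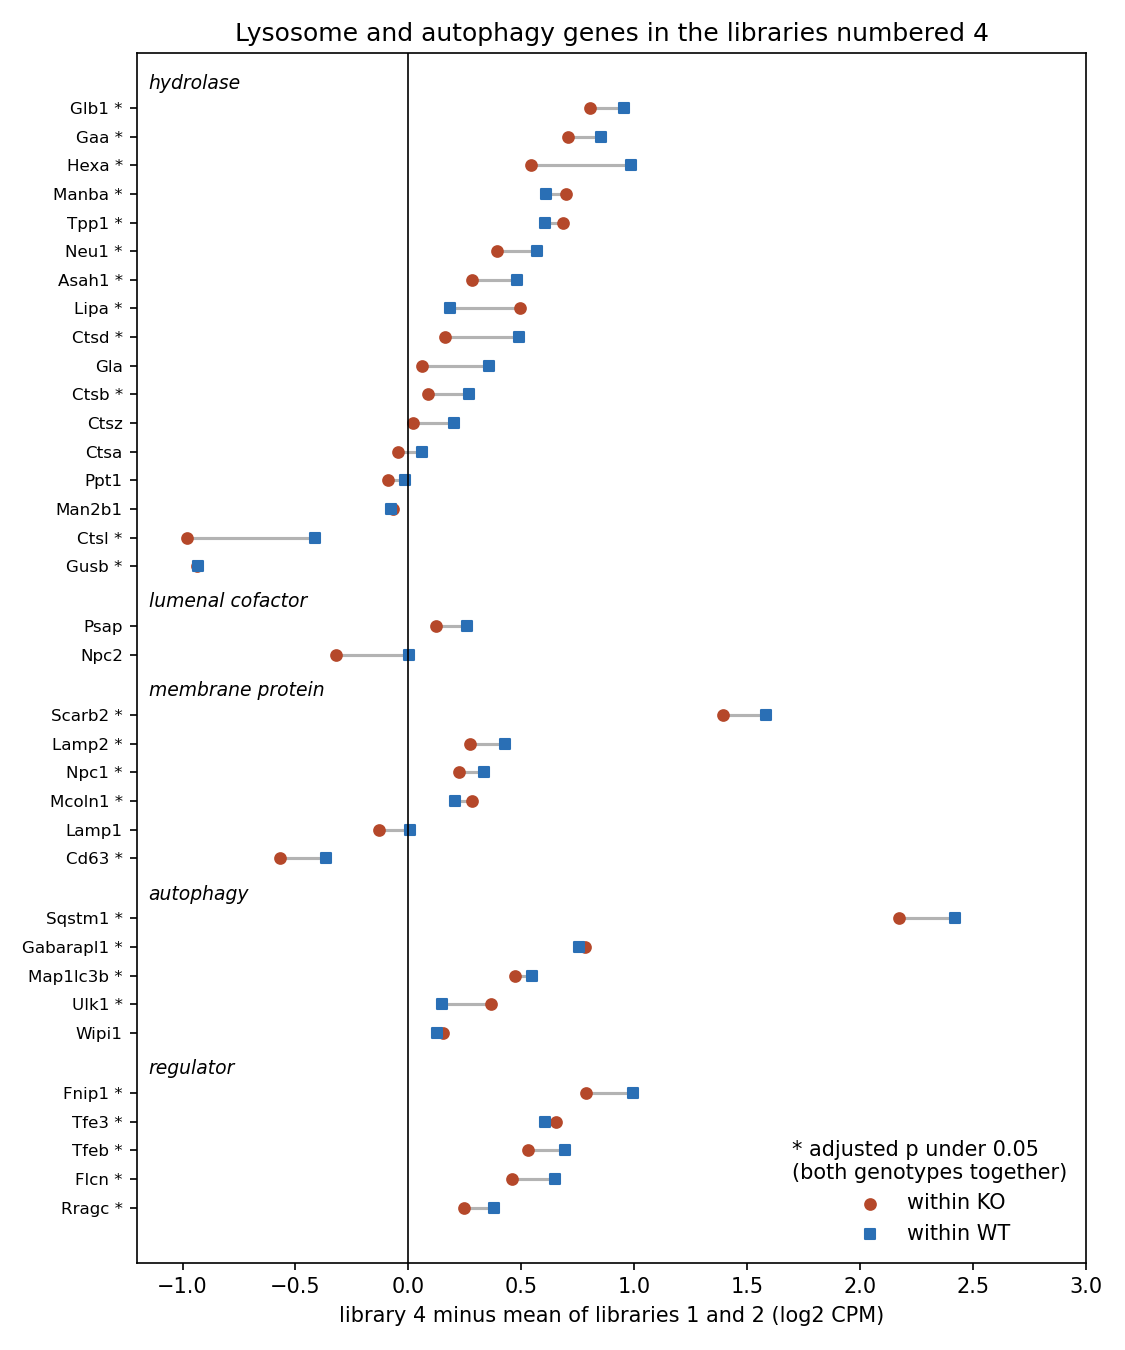
The level in library 4 minus the mean of libraries 1 and 2 is plotted on the x axis in log2 CPM for 35 genes, as a circle within KO and a square within WT, grouped by role, with an asterisk for genes past an adjusted p of 0.05 in limma's fit of both genotypes. Sqstm1 and Scarb2 lie farthest to the right, and Gusb, Ctsl and Cd63 lie left of 0 in both genotypes.

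Sqstm1, which encodes the autophagy adaptor p62 that binds ubiquitinated cargo and LC3, rose most (GRCm38 chromosome 11, 50199366 to 50210827, minus strand). Its level was 8.30, 8.45 and 10.55 log2 CPM in the KO libraries 1, 2 and 4, and 8.42, 8.19 and 10.72 in the WT libraries 1, 2 and 4. The libraries numbered 4 were far above the others in each genotype, whereas KO and WT overlapped. The difference of the libraries numbered 4 was 2.30 (SE 0.08), a 4.91-fold rise (limma adjusted p = 1.3e-07). Per kilobase of exon, the level went from 96.8 CPM, the 6th highest of the 35 genes, to 475 CPM, the highest. Mrnip, which overlaps exons of Sqstm1 on the opposite strand, was at 1.53 to 2.05 log2 CPM in the libraries numbered 1 and 2 and at 2.81 and 2.82 in KO 4 and WT 4, and rose by 1.06 (limma adjusted p = 0.0012).

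Other autophagy genes rose less. Gabarapl1, which encodes an ATG8-family protein that is joined to autophagosome membranes, was at 4.81, 4.78 and 5.58 log2 CPM in the KO libraries 1, 2 and 4, and at 4.99, 4.90 and 5.70 in the WT libraries 1, 2 and 4. It rose by 0.77 (SE 0.07, limma adjusted p = 1.1e-05), with values of 0.78 within KO and 0.76 within WT. Map1lc3b, the gene of LC3B, the most used marker protein of autophagosomes, rose by 0.51 (SE 0.08, limma adjusted p = 0.00049). Ulk1, the kinase that starts autophagy, rose by 0.26 (SE 0.10, limma adjusted p = 0.0455), a call that ended under 9 of 17 alternatives. Wipi1, a phosphoinositide-binding protein of early autophagosomes, differed by 0.14 and did not pass (limma adjusted p = 0.13).

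All 5 measured regulators were called higher in the libraries numbered 4, where 31.8% of all genes were. In each of them both such libraries lay above the 4 others, where 35.8% of all genes did. Fnip1, a partner of folliculin, was at 5.72, 5.68 and 6.49 log2 CPM in the KO libraries 1, 2 and 4, and at 5.68, 5.42 and 6.54 in the WT libraries 1, 2 and 4. It rose by 0.89 (SE 0.08, limma adjusted p = 1.8e-05). Flcn, folliculin itself, which acts on RagC and RagD as a GTPase-activating protein, rose by 0.55 (SE 0.10, limma adjusted p = 0.00081). Rragc, the gene of RagC, rose by 0.31 (SE 0.09, limma adjusted p = 0.014), from 6.80, 6.66, 6.79 and 6.46 log2 CPM in KO 1, KO 2, WT 1 and WT 2 to 6.97 and 7.01 in KO 4 and WT 4.

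The transcription factor genes rose by similar amounts. Tfe3 was at 5.64, 5.71 and 6.33 log2 CPM in the KO libraries 1, 2 and 4, and at 5.72, 5.61 and 6.27 in the WT libraries 1, 2 and 4, a difference of 0.63 (SE 0.06, limma adjusted p = 2.2e-05). Tfeb was at 2.06, 2.31 and 2.72 in KO and at 2.30, 1.97 and 2.83 in WT, a difference of 0.61 (SE 0.16, limma adjusted p = 0.0085). Tfeb had the fewest reads of all 35 genes, 72 to 136 per library, and its call ended under 3 of 17 alternatives. Per kilobase of exon, Tfe3 was at 5.49 CPM and Tfeb at 0.784 CPM in the libraries numbered 1 and 2. These are transcript levels, and both proteins are known to be controlled by their place in the cell, which the data do not show.

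**Figure D2:**
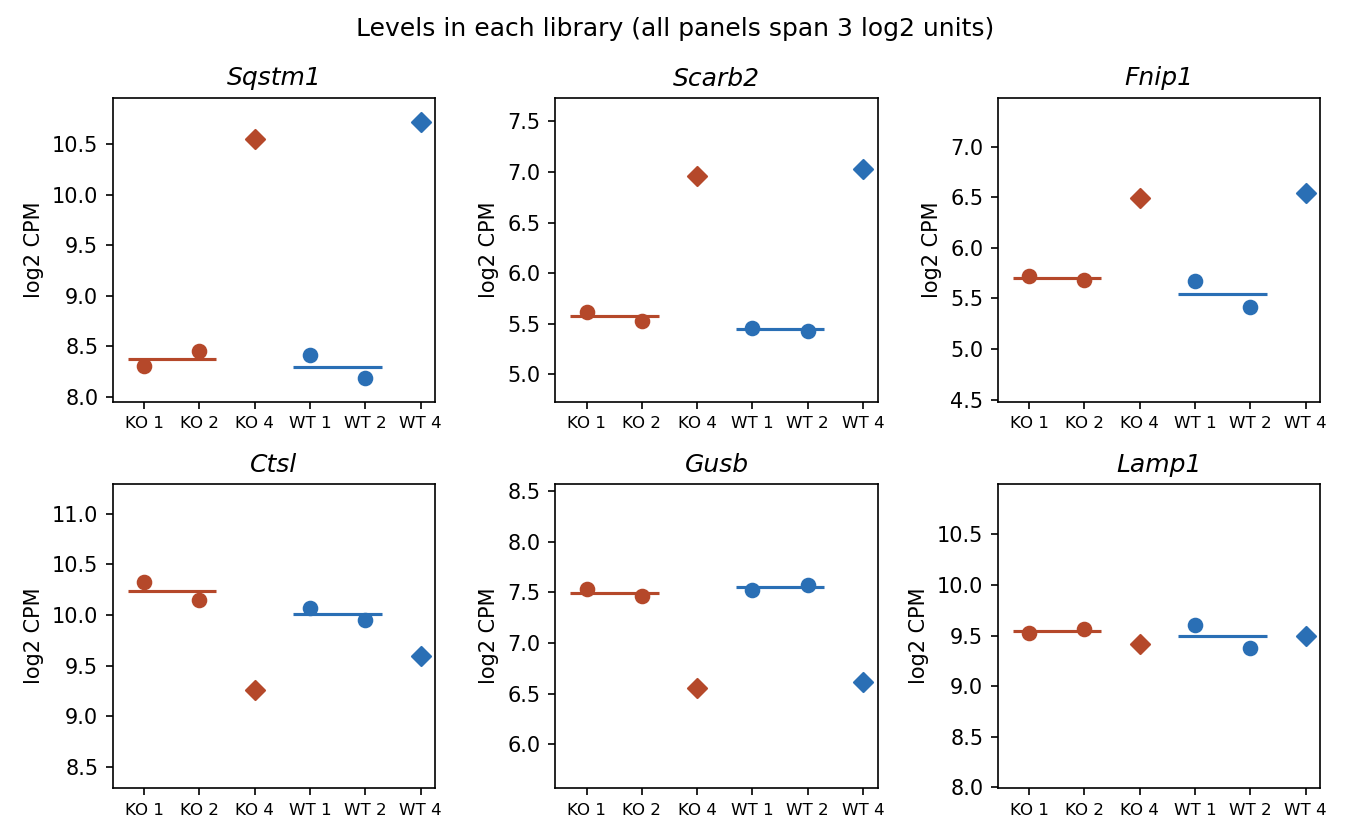
Each panel plots 1 gene, with log2 CPM on the y axis over a span of 3 units and the 6 libraries on the x axis, as circles for the numbers 1 and 2, diamonds for the number 4, and a line at the mean of 1 and 2 within a genotype. Sqstm1, Scarb2 and Fnip1 are higher and Ctsl and Gusb lower in KO 4 and WT 4, while the Lamp1 values of KO 4 and WT 4 (9.42 and 9.50) lie within the range of the 4 other libraries.

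Among lysosomal membrane proteins, Scarb2 stood out (GRCm38 chromosome 5, 92441314 to 92506833, minus strand). It encodes LIMP-2, the receptor that carries glucocerebrosidase to the lysosome. Its level was 5.62, 5.52 and 6.96 log2 CPM in the KO libraries 1, 2 and 4, and 5.46, 5.43 and 7.03 in the WT libraries 1, 2 and 4. KO 4 and WT 4 lay far above the 4 other libraries, which were close to each other. The difference was 1.49 (SE 0.07), a 2.80-fold rise (limma adjusted p = 3.0e-07).

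The other membrane proteins differed less, and not all in the same direction. Lamp2, a major glycoprotein of the lysosomal membrane with a role in chaperone-mediated autophagy, rose by 0.35 (SE 0.11, limma adjusted p = 0.018). Npc1, which exports cholesterol from the lysosome, rose by 0.28 (SE 0.08), and Mcoln1, the calcium channel TRPML1, by 0.24 (SE 0.09), a call that ended under 9 of 17 alternatives. Cd63, a tetraspanin of late endosomes and exosomes, was at 8.87, 8.90 and 8.31 log2 CPM in the KO libraries 1, 2 and 4, and at 8.93, 8.82 and 8.51 in the WT libraries 1, 2 and 4. It fell by 0.47 (SE 0.06, limma adjusted p = 0.00017).

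Lamp1, the other major lysosomal membrane glycoprotein, had the highest level per kilobase of exon of the 35 genes in the libraries numbered 1 and 2, at 275 CPM. It was at 9.52, 9.57 and 9.42 log2 CPM in the KO libraries 1, 2 and 4, and at 9.61, 9.38 and 9.50 in the WT libraries 1, 2 and 4. KO 4 and WT 4 lay within the range of the 4 other libraries, and the difference of -0.06 (SE 0.07) did not pass (limma adjusted p = 0.48). Its stretch of promoter shown above is the one with 4 flanked cores.

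Of the 17 hydrolase genes, 10 rose, 2 fell and 5 did not pass in the libraries numbered 4 (58.8% higher and 11.8% lower, where 31.8% and 33.8% of all genes were), with a median difference of 0.33 and a range of -0.94 to 0.88. Glb1, the lysosomal beta-galactosidase, was at 5.13, 4.97 and 5.85 log2 CPM in the KO libraries 1, 2 and 4, and at 5.12, 5.09 and 6.06 in the WT libraries 1, 2 and 4. It rose by 0.88 (SE 0.07, limma adjusted p = 9.1e-06). Glb1 shares exonic sequence on its strand with Tmppe, which was at 2.80 to 3.57 log2 CPM and fell by 0.53 in the same libraries. Gaa, the acid alpha-glucosidase that degrades glycogen, was at 6.03, 5.83 and 6.64 in KO and at 6.06, 5.88 and 6.82 in WT, and rose by 0.78 (SE 0.08, limma adjusted p = 2.75e-05).

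Further glycan and lipid hydrolases rose as well. Manba, the lysosomal beta-mannosidase, rose by 0.65 (SE 0.12), and Neu1, the lysosomal sialidase, by 0.48 (SE 0.11). Hexa, the alpha subunit of beta-hexosaminidase, rose by 0.77, with an SE of 0.25 that is the largest of the 35 genes and a call that ended under 7 of 17 alternatives. Its level was 3.24, 3.08 and 3.70 log2 CPM in the KO libraries 1, 2 and 4, and 3.51, 2.46 and 3.97 in the WT libraries 1, 2 and 4, so WT 2 lay well below WT 1. The acid ceramidase gene Asah1 and the acid lipase gene Lipa rose by 0.38 (SE 0.07) and 0.34 (SE 0.10). Gla, the alpha-galactosidase A gene, Man2b1, the lysosomal alpha-mannosidase gene, and Ppt1, a palmitoyl thioesterase gene, differed by 0.21, -0.07 and -0.05 and did not pass.

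The proteases were split. Tpp1, a tripeptidyl peptidase, rose by 0.65 (SE 0.14), and the aspartic protease cathepsin D gene Ctsd rose by 0.33 (SE 0.10). Ctsb, cathepsin B, rose by 0.18 (SE 0.06). Without WT 4, neither Ctsd (0.16, limma adjusted p = 0.28) nor Ctsb (0.09, limma adjusted p = 0.38) passed, and Ctsb did not pass without WT 2 either. Ctsl, the cysteine protease cathepsin L (GRCm38 chromosome 13, 64359337 to 64370890, minus strand), fell instead. It was at 10.33, 10.14 and 9.25 log2 CPM in the KO libraries 1, 2 and 4, and at 10.07, 9.95 and 9.60 in the WT libraries 1, 2 and 4.

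The fall of Ctsl was 0.70 on average (SE 0.12, limma adjusted p = 0.00064). Its values were -0.98 within KO and -0.41 within WT. Ctsa, the protective protein of beta-galactosidase and sialidase, and Ctsz, cathepsin Z, differed by 0.0051 and 0.11 and did not pass. Gusb, the beta-glucuronidase, fell most (GRCm38 chromosome 5, 129989011 to 130003049, minus strand). It was at 7.53, 7.47 and 6.56 in the KO libraries 1, 2 and 4, and at 7.53, 7.58 and 6.62 in the WT libraries 1, 2 and 4.

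The difference for Gusb was -0.94 (SE 0.05, limma adjusted p = 7.8e-07), a level 1.91-fold lower in the libraries numbered 4, with values of -0.94 within KO and -0.93 within WT. Neither of the 2 lumenal cofactor genes passed. Psap, the precursor of the saposins that help glycosidases act on sphingolipids, differed by 0.19 (SE 0.08, limma adjusted p = 0.058). Npc2, the soluble cholesterol carrier that works with NPC1, differed by -0.16 (SE 0.09, limma adjusted p = 0.14).

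The 3 genes that fell, Ctsl, Gusb and Cd63, were among the 10 with the highest level per kilobase in the libraries numbered 1 and 2, at 173, 40.5 and 128 CPM. In the libraries numbered 4 they were at 107, 21.2 and 92.6 CPM. The other genes of these 10 were Sqstm1, Asah1, Ctsb and Ctsd, which were called higher, and Lamp1, Psap and Ctsz, which did not pass. The share of all recovered reads taken by the 35 genes together was 0.468% to 0.532% in the libraries numbered 1 and 2, and 0.642% and 0.704% in KO 4 and WT 4. Sqstm1 alone took 0.0283% to 0.0341% in the former and 0.160% and 0.176% in KO 4 and WT 4. Without it, the other 34 genes took 0.439% to 0.498% in the libraries numbered 1 and 2. They took 0.482% in KO 4, which lay within that range, and 0.528% in WT 4, which lay above it. These shares leave out the authors' scaling and are not on the scale of the CPM values. The places of KO 4 and WT 4 against that range thus apply to shares of reads only.

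The flanked core was set beside the difference as a description, with no test. The 9 genes with it had a median difference of 0.31 in the libraries numbered 4, with a range of -0.06 to 0.89, and 6 of them were called higher. The 23 genes with a window and no flanked core had a median of 0.35, a range of -0.94 to 2.30, and 14 called higher. Over all tested genes with a window, the medians were 0.07 for 652 genes with the flanked core and -0.0068 for 8292 without it.

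Other genes of the pathway, in 7 lists of 163 measured genes beyond the 35, were counted in the same fit. Of these 74 (45.4%) rose and 30 (18.4%) fell, with a median of 0.17, beside 65.7%, 8.57% and 0.33 for the 35 genes and 31.8%, 33.8% and 0.0031 for all genes tested. Each list is to be read against these all-gene shares. Among 29 further lysosomal enzymes, 16 rose (55.2%) and 3 fell (10.3%). The cysteine protease cathepsin O gene Ctso rose by 1.41, while the hyaluronidase gene Hyal2 fell by 0.61 and the thioesterase gene Ppt2 by 0.52. Among 22 other lysosomal proteins, 9 rose (40.9%) and 3 fell (13.6%). Ctns, the cystine exporter, was at 2.45, 2.50 and 4.58 log2 CPM in the KO libraries 1, 2 and 4, and at 2.72, 2.41 and 4.59 in the WT libraries 1, 2 and 4, a 4.18-fold rise (limma adjusted p = 1.3e-06). Lmbrd1, a cobalamin transport protein, rose by 1.43, and the ion channel gene Tpcn2 and the membrane transporter gene Mfsd1 fell by 0.83 and 0.36.

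The 16 vacuolar ATPase genes, whose product acidifies the lysosome, had 5 higher (31.2%) and 5 lower (31.2%), near the all-gene shares of 31.8% and 33.8%. Atp6v0d1 and Atp6v0a1 rose by 0.87 and 0.68, and Atp6v1a and Atp6v0a2 fell by 0.42 each. Among the 10 sorting genes, 3 rose (30%) and 4 fell (40%), also near the all-gene shares. Igf2r and Gnptg, the large mannose 6-phosphate receptor and a subunit of the enzyme that starts the mannose 6-phosphate tag, rose by 0.61 and 0.63, whereas Gnptab, which encodes the catalytic subunits of that enzyme, fell by 0.64 and Nagpa, the enzyme that uncovers the tag, fell by 1.48.

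Core autophagy genes numbered 40, of which 20 rose (50%) and 6 fell (15%). The autophagy receptor gene Calcoco1 rose by 1.88 and Wdr45, a relative of Wipi1, by 1.16, while Tmem41b, a lipid scramblase of the endoplasmic reticulum, fell by 1.25 and Becn1, a subunit of the autophagy lipid kinase complex, by 0.44. Of 29 genes of mTORC1 signalling at the lysosome, 12 rose (41.4%) and 5 fell (17.2%), with a median of 0.07. Sesn2, a leucine-binding inhibitor of mTORC1, was at 3.25, 2.87 and 6.0 log2 CPM in the KO libraries 1, 2 and 4, and at 3.19, 4.25 and 6.05 in the WT libraries 1, 2 and 4, a difference of 2.63 (SE 0.26, limma adjusted p = 2.6e-05). Mitf, a relative of Tfeb and Tfe3, rose by 0.83, with values of 1.29 within KO and 0.37 within WT and no call without KO 4. The Ragulator subunit gene Lamtor1 and the GATOR1 subunit gene Depdc5 fell by 0.70 and 0.46. Of 17 genes of lysosome fusion and positioning, 9 rose (52.9%) and 4 fell (23.5%). Borcs5 and Bloc1s2, subunits of the complex that positions lysosomes, rose by 0.63 and 0.53, the first of them past the threshold in 12 of 17 alternatives, and the tethering complex genes Vps11 and Vps33a fell by 0.49 and 0.31.

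**Figure D3:**
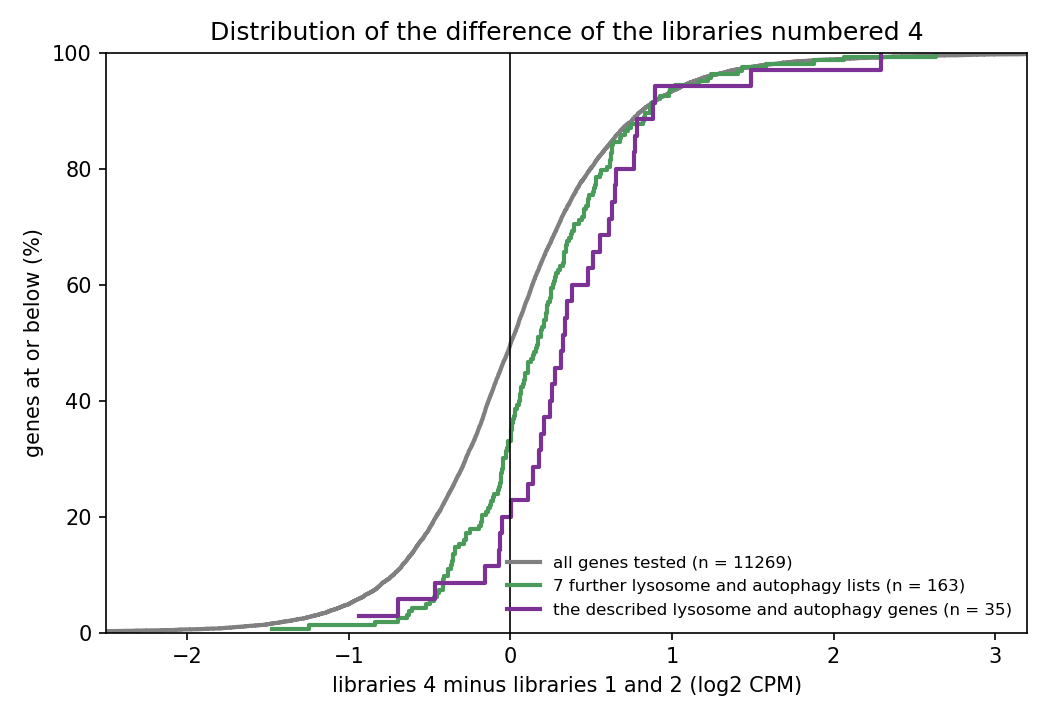
The x axis gives the level in the libraries numbered 4 minus that in the libraries numbered 1 and 2 in log2 CPM, and the y axis the percentage of genes at or below it, for the 35 described genes, 163 genes of the 7 further lists and all 11269 genes tested. The curves lie in that order from right to left over the middle of the range, with medians of 0.33, 0.17 and 0.0031.

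Other measures moved with the number. Of 7 measured mitochondrially encoded genes, 6 fell in the libraries numbered 4, with a list median of -0.65, and they held 0.343% and 0.309% of reads in KO 4 and WT 4 against 0.379% to 0.493% in the others. Across 11178 genes with an exon length, Spearman's rho between length and the difference was 0.09, where genes share libraries and are not independent, and the 35 genes had a median exon length of 4715 bases against 4545 for all. The part of these measures in the difference was not tested. Of the 2 macrophage markers with a row, Cd14 fell by 0.45, and Cd68 differed by -0.27 and did not pass (limma adjusted p = 0.36), with values of -0.56 within KO and 0.02 within WT. Of the epithelial markers, Krt8 fell by 1.27, Epcam rose by 0.46, Cdh1 rose by 0.36, and Krt18 differed by -0.28 and did not pass. The part of either marker list in the difference was not tested.

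Whether the difference of library 4 was of another size in KO than in WT was tested by the interaction of genotype and number 4. No gene of the 35, and none of all 11269 (0%), passed in limma's test, with 1 and 440 genes at an unadjusted p under 0.05. The difference was smaller, or more negative, in KO for 26 of 35 genes (74.3%), against 52.3% of all genes, and the median was -0.15 against -0.01. The WT side of this comparison includes the library WT 2, which was low in many of the 35 genes, as described below. Its part in the shift was not tested. Leaving out a library numbered 1 or 2 gave medians of -0.23 to -0.0263. The gene with the largest value was Ctsl, at -0.57 (SE 0.15, limma adjusted p = 0.997). Leaving out WT 1 gave -0.63 for Ctsl, and leaving out WT 2 gave -0.51. Without WT 1, Hexa went from -0.44 to -0.97, Ctsd from -0.32 to -0.48 and Npc2 from -0.32 to -0.45. With WT 1 or WT 2 left out, WT holds 1 library on each side, which is assumed to vary like the others. With voom on the recovered reads 0 genes passed.

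The genotype comparison asks whether loss of myosin 1e goes with other levels of these genes. No lysosome or autophagy gene differed between KO and WT past the threshold, with 0 higher and 0 lower of 35 in limma's test, none at an unadjusted p under 0.05, where 0.204% of all genes were, and 0 of all 11269 genes called (0%). The differences ran from -0.18 to 0.14, with a median of -0.02, against -0.0071 over all genes. On average 22 of 35 genes (62.9%) were below WT, against 52.9% of all genes. In limma's test with the library number as a replicate block 0 of the 35 passed as well, 1 had an unadjusted p under 0.05 against 9.91% of all genes, and 1 gene outside the list was called among all genes (0.00887%). With limma voom on the recovered reads the count was also 0 of 35.

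Man2b1 had the clearest separation by genotype (GRCm38 chromosome 8, 85083270 to 85098282, plus strand). It was at 5.59, 5.66 and 5.55 log2 CPM in the KO libraries 1, 2 and 4, and at 5.75, 5.81 and 5.70 in the WT libraries 1, 2 and 4. All 3 KO values lay below all 3 WT values, which held for 1 of the 35 genes and for 1.59% of all genes. The reverse held for 0 of the 35 genes and for 2.04% of all genes. The pair differences were -0.16, -0.15 and -0.15, with a mean of -0.15 (SE 0.09, limma adjusted p = 0.9999). The replicate block brought the SE to 0.06 and limma's adjusted p to 0.43.

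Lipa had the most negative mean difference, -0.18 (SE 0.18, limma adjusted p = 0.9999), with pair differences of -0.32, -0.24 and 0.03. Manba differed by -0.14, Gabarapl1 by -0.14 and Gaa by -0.09, each below WT in 3 of 3 pairs, as was Man2b1. Npc1 had the most positive difference, 0.14 (SE 0.15, limma adjusted p = 0.9999), and was above WT in 3 of 3 pairs by 0.11, 0.25 and 0.07. Across the 35 genes 4 were below WT in 3 of 3 pairs, where 17% of all genes were, and 1 was above, where 15.6% were.

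Within the numbers, the genes went different ways. In the pair numbered 1, 26 of 35 genes were lower in KO (74.3%), with a median of -0.08, against 50.1% of all genes. In the pair numbered 4, 29 of 35 were lower (82.9%), with a median of -0.12, against 53.3% of all genes. In the pair numbered 2, only 8 were lower (22.9%) and 27 were higher, with a median of 0.09, against 50.3% lower of all genes. The medians over all genes in the 3 pairs were between -0.01 and -0.00050.

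**Figure D4:**
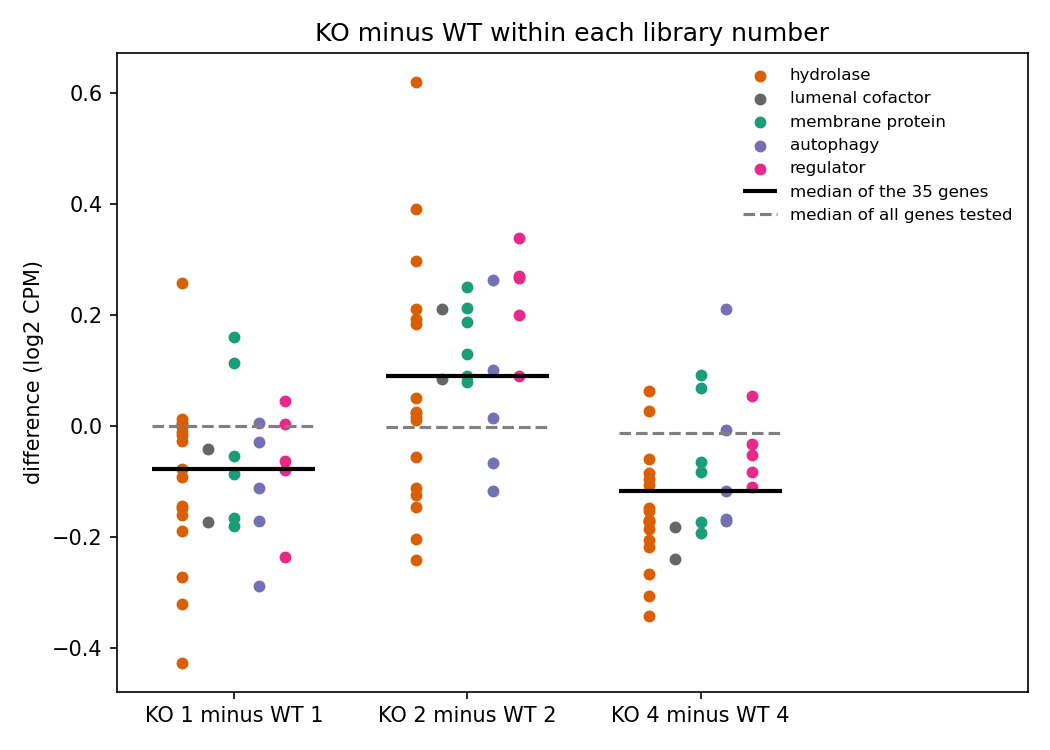
Each point is 1 of 35 genes, coloured by role, with its level in KO minus that in WT on the y axis in log2 CPM and the library number on the x axis, and lines mark the medians of the 35 genes and of all genes tested. The median lies at -0.08, 0.09 and -0.12 for the numbers 1, 2 and 4, so the pair numbered 2 has the opposite sign.

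The pair numbered 2 went with a low WT 2 library. WT 2 had the lowest value of all 6 libraries in 22 of the 35 genes (62.9%), against 13.7% of all genes tested. These shares are not like for like. Both libraries numbered 4 lay below the 4 others in 37% of all genes and in 3 of the 35, and WT 2 cannot be lowest there. It was below WT 1 in 30 of 35 genes (85.7%, against 50.2% of all genes), by a median of -0.18, whereas KO 2 was below KO 1 in 17 of 35, with a median of 0.0055. The regulators Tfeb, Tfe3, Flcn, Fnip1 and Rragc were all lowest in WT 2, as were 5 of the 6 membrane protein genes and 9 of 17 hydrolase genes. The largest gaps between WT 2 and WT 1 were in Hexa (2.46 against 3.51 log2 CPM) and Tpp1 (4.88 against 5.45).

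The vacuolar ATPase genes had 16 of 16 lower in WT 2 than in WT 1, by a median of -0.33. Beside the all-gene share of 50.2%, 17 of 29 further lysosomal enzymes (58.6%) were lower in WT 2, by a median of -0.04, as were 23 of 40 core autophagy genes (57.5%), by a median of -0.03, and 5 of 10 sorting genes (50%). The remaining counts were 16 of 22 other lysosomal proteins (72.7%), 11 of 17 fusion and positioning genes (64.7%) and 10 of 29 mTORC1 signalling genes (34.5%). A single library gives no test of this gap. Without WT 2 the median KO minus WT difference of the 35 genes was -0.15, and without WT 4 it was 0.11. Once a library is left out, KO and WT no longer hold the same numbers, so these medians move in part by construction. In the libraries numbered 1 and 2 only, the median was 0.0070.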

How the data were processed

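The deposited table holds log2 CPM values for 6 libraries of 4T1 cells, made by the authors. Per the submitters' processing notes, the genome build was GRCm38 and the tools were edgeR, STAR 2.7.3a, Trimmomatic 0.39 and, from Subread 1.6.4, featureCounts. The sources used here do not give the strand setting, the annotation release or the scaling. By GENCODE M21, 12 of the 36 genes share exonic bases with a gene on the opposite strand, 8 of them with a gene in the table, and 3 with a gene on the same strand, so some reads may be misassigned. Less the value of 0 reads, linear values were whole multiples of 1 step per library within 0.01 (100% of values), which gave the reads per library. The step was 0.0515 CPM in KO 1 with 19988206 reads and 0.0480 CPM in KO 4 with 19560010 reads. The scaling was thus not by the sum of these reads alone. A count of 0, with 3 reads as the limit, allows up to 0.144 to 0.173 CPM, for counting error only.

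Genes that reached 0 on the log2 CPM scale in 3 or more libraries were fitted with limma 3.58.1 in R 4.3.3 with a trended variance, two-sided, Benjamini-Hochberg over 11269 genes. Differences are on the authors' log2 scale with its prior, so changes of genes with few reads are understated. KO against WT had no covariate, and number 4 against 1 and 2 had genotype as covariate. The fit of KO against WT thus left the difference of the libraries numbered 4 in its error. For Sqstm1 its SE was 0.88, against 0.08 with the replicate block, so it had little power for genes that moved with the number. An exact permutation test of 3 against 3 cannot go below p = 0.1. Levels between genes were compared per kilobase of GENCODE exon.

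Columns 1 and 2 were matched to pools of those numbers and column 4 to its genotype only. Deviations of same-numbered KO and WT libraries from their genotype means correlated at 0.744, 0.784 and 0.921 for the numbers 1, 2 and 4, so the numbers were taken to pair the libraries, from the data and not from a label. Across the numbers, the values were 0.687 for KO 1 and WT 2 and 0.617 for KO 2 and WT 1. The split of number 4 from the others raises all of these values. They are thus weak ground for pairing the libraries numbered 1 and those numbered 2. The genes, lists and contrasts were chosen with earlier results of these data known. Named were all 36 genes, Myo1e and, from each list, up to 2 genes with the largest rise and 2 with the largest fall past the threshold for number 4, and other names were chosen after their values were seen. A gene that the rule names is not reported here. The fits were tested on simulated reads that held only the tested change. The simulation for KO against WT thus had no difference of the libraries numbered 4, and its outcome does not carry over to these data. Alternatives were other filters, pseudocounts of 1 and 0.25, median centring, quantile normalization, no variance trend, voom, the replicate block, a term for number 4, the libraries of 1 genotype or of the numbers 1 and 2 only, and leaving out each library.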

Additional observations from a re-analysis of the deposited data

How the results depend on the processing

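Of the 26 calls for number 4, 15 held under all 17 alternatives, among them Sqstm1, Scarb2, Fnip1, Glb1, Gaa, Gusb, Ctsl and Cd63, and 11 were lost under 1 or more, most often Mcoln1 and Ulk1 (9 each). The count of genes called higher was 23, but 13 in KO libraries only with the spread pooled over all 6, and 13 to 23 when leaving out each library, with 13 without WT 4. It was 16 without the variance trend and 24 with the replicate block. The count called lower was 3 or 4 throughout. The cause was not tested. The fit of KO libraries only gave the same differences as that without WT 4, and the fit of WT libraries only the same as that without KO 4. These fits are thus not separate checks, and counts out of 17 alternatives hold both fits of each pair. Uncalled genes near 0 changed sign: Ctsa was at -0.0171 with median centring and -0.0477 in KO libraries only, Lamp1 at 0.0654 with quantile normalization and 0.0052 in WT libraries only, and Npc2 at 0.0031 in WT libraries only. Leaving out each library gave Ctsa -0.0754 to 0.0706, Lamp1 -0.13 to 0.0052 and Npc2 -0.32 to 0.0031.

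For KO against WT, the count called stayed at 0 of 35 under every alternative run, and 1 gene of all was called with the replicate block, which changed no call of the 35. The median of the 35 genes ran from -0.15 to 0.11 when leaving out each library. Sqstm1 (-0.0064) was at 0.0214 with quantile normalization and 0.0759 in the numbers 1 and 2 only. Leaving out each library gave -0.73 to 0.80 for Sqstm1, -0.40 to 0.59 for Scarb2, -0.17 to 0.36 for Ctsl, -0.38 to 0.0614 for Manba, -0.40 to 0.12 for Gabarapl1 and -0.40 to 0.36 for Hexa, moving in part by construction. For the interaction, leaving out each library gave 0 to 4 calls among the 35 genes, 0 to 269 among all genes, and medians of -0.23 to -0.0263. Leaving out KO 4 or WT 4 gave no interaction fit, since 1 cell is then empty. Depth limited Tfeb, with 72 reads in its lowest library, and Hexa, with 101.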
